A study of Mus musculus with 6 samples.

Results

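The genes of the methionine cycle and of transsulfuration were examined in mouse liver as a set of 10, namely Mat1a, Mat2a, Mat2b, Gnmt, Ahcy, Bhmt, Bhmt2, Cbs, Cth and Pemt. They were chosen by name from the textbook pathway, with earlier results of these data known, among 56305 genes of an RNA sequencing (RNA-seq) table. Vps15, encoded by Pik3r4, is the regulatory subunit of class 3 phosphoinositide 3-kinase, a lipid kinase complex of autophagy and endosomal trafficking. One group were wild-type (WT) mice and the other Vps15LKO mice, which carry AlbCre and floxed Vps15 alleles (AlbCre+;Vps15 f/f) and so delete the gene chronically in cells that express Cre from the albumin promoter, chiefly hepatocytes. All animals were males of 5 weeks, fed ad libitum and sampled 6 h after lights on (Zeitgeber time 6, ZT6), with 3 mice and 3 libraries per genotype. Whether the WT mice carried AlbCre or floxed alleles is not given in the sources used here. Liver cells in which the Cre was never active keep the gene, and RNA came from whole liver. All 10 members were detected in every liver and all 10 passed the filter on low values.

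Methionine is activated to S-adenosylmethionine (SAM), the methyl donor of most methyltransferases, and each methyl transfer leaves S-adenosylhomocysteine, which is split into adenosine and homocysteine. Homocysteine is then either methylated again to methionine, which in liver can use betaine, or condensed with serine and cleaved to cysteine along the transsulfuration branch, which feeds glutathione and taurine. The liver is the main site of the cycle, and adult hepatocytes make SAM with the enzyme encoded by Mat1a, whereas fetal liver and most other tissues use that encoded by Mat2a.

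The values were read counts divided by a size factor for each library (normalized counts), with 16137093 to 18110223 reads on genes per library. Size factors ran from 0.742 to 0.801 in WT and from 1.23 to 1.41 in Vps15LKO, so the scaling itself differed between genotypes. When every library was scaled to the same total instead, the median log2 fold change of all genes moved by 0.72. Pik3r4, the targeted gene, had 508, 573 and 459.7 normalized counts in WT, compared with 341, 362 and 355 in Vps15LKO, a fall of 1.45-fold (log2 fold change −0.54, SE 0.11, adjusted p = 0.00207). With equal totals Pik3r4 took the other sign and was not called (log2 fold change 0.19, SE 0.12, adjusted p = 0.164), with 21.5, 25.3 and 21.1 RPM (reads scaled to a common total) in WT, compared with 24.9, 24.7 and 27.8 in Vps15LKO. The whole-gene count therefore does not check the genotype labels on both scales, and the deleted exons were not counted apart from the rest of the gene. Fewer hepatocytes in a liver and less RNA per hepatocyte cannot be told apart in whole tissue.

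In Vps15LKO livers 8 of the 10 genes were lower than in WT, Mat2a was higher, and Mat2b did not pass the test. The falls ranged from 2.69-fold for Pemt to 7.86-fold for Gnmt, and Mat2a rose 1.71-fold. Calls required a limma adjusted p below 0.05 plus a change of 1.2-fold or more, and 33.0% of the 15430 tested genes were called lower by this rule and 33.5% higher. Among the 3086 tested genes with the highest mean counts, which include 9 of the 10 members, 57.7% were called lower and 19.6% higher. Counts of the 8 lower members did not overlap between genotypes, as was so for 36.8% of tested genes in that direction, and Mat2a did not overlap in the opposite one, as for 36.4%. For the 3086 abundant genes these shares were 61.8% and 21.6%. The median log2 fold change of the 10 members was −1.88, against −0.02 for all tested genes.

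**Figure D1:**
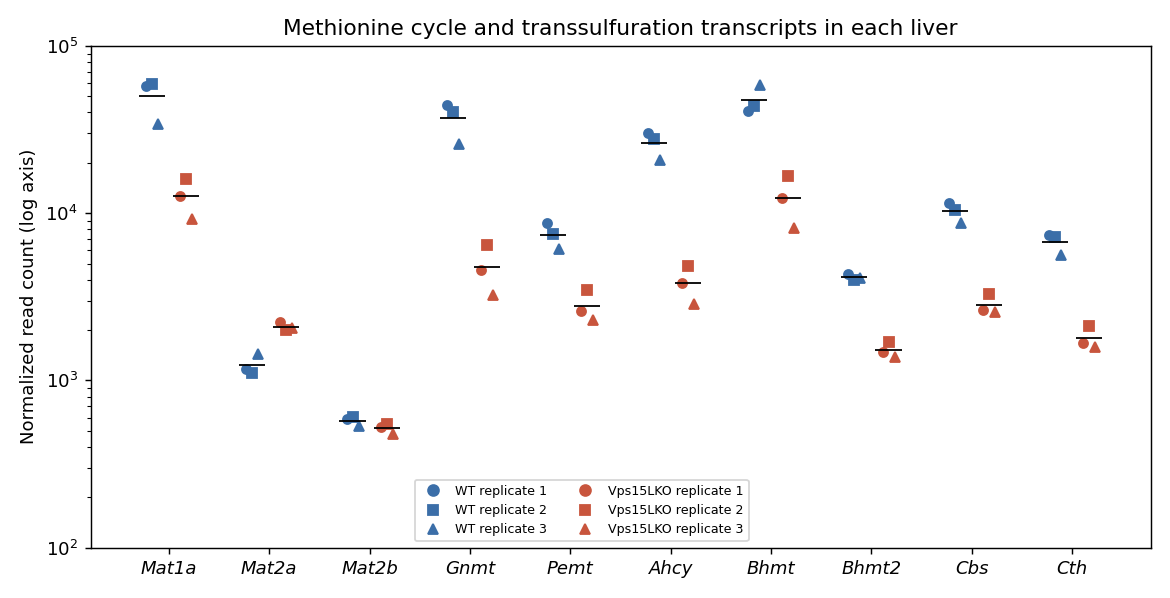
Normalized counts (log axis) of the 10 methionine cycle and transsulfuration genes in each liver, with a point for every liver and a line at each group mean. The 3 Vps15LKO points lie below the 3 WT points for 8 genes, above them for Mat2a, and overlap them for Mat2b, where 2 of the 3 lie below all WT points.

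Upstream sequence is shown for Mat2a, the member that rose, for Gnmt, the member with the largest fall, and for Cbs, the member whose window holds a canonical E-box, the class of element bound by the clock factors Bmal1 and Clock. Each line gives, 5′ to 3′ on the strand of the gene, the 250 bases before the RefSeq transcript start (GRCm38.p6), and capitals mark the motif letters found on either strand. 
Mat2a (chr6:72439557-72439806, minus strand): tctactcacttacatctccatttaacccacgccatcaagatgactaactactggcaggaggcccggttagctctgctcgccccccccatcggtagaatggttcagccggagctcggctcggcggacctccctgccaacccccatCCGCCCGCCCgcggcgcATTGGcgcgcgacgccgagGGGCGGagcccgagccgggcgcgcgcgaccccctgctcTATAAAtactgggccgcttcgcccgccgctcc
Gnmt (chr17:46729166-46729415, minus strand): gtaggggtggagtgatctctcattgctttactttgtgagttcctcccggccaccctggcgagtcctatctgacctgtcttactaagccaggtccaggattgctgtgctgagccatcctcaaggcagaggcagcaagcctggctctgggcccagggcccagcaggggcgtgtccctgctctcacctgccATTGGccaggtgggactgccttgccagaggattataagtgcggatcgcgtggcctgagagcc
Cbs (chr17:31637206-31637455, minus strand): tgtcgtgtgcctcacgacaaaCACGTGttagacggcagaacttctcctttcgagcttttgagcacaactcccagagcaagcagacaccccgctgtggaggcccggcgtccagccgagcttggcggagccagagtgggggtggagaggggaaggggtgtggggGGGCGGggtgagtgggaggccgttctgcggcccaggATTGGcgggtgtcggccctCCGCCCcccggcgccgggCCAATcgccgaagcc
In Mat2a the capitals are a TATA box (TATAAA) starting 32 bases before the transcript start, a CCAAT box in reverse at 89, and GC boxes (GGGCGG, in either orientation) at 106, 102 and 70, the first pair overlapping. The Gnmt stretch holds a reverse CCAAT box at 62. In Cbs an E-box (CACGTG) starts 229 bases before the transcript start, with CCAAT boxes at 52 and 15 and GC boxes at 88 and 33. RefSeq windows of 300 bases, 250 before and 50 after the start, were found for 8 of the 10 members, in 9 windows since Pemt has 2. Mat1a and Cth are not among them. Over 32851 such windows of the genome, 7.15% hold CACGTG, 37.4% hold CCAAT, 35.7% hold GGGCGG and 13.6% hold TATAAA on either strand, and of the 9 windows 1, 7, 5 and 1 did. The D-box letters TTATGTAA (0.938% of all windows), the antioxidant response letters TGACNNNGC (12.4%) and the ATF4 letters TGATGCAA (0.895%) were in 0 of the 9. These letters are a description of the windows, and binding was not measured here.

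The genes for SAM synthesis moved in opposite directions. Mat1a encodes the catalytic subunit of the methionine adenosyltransferase of adult liver, Mat2a that of the enzyme used elsewhere, and Mat2b the regulatory subunit that binds the Mat2a product. Mat1a (chr14:41105035-41124412, plus strand) had 57801, 58814 and 34119 normalized counts in WT, compared with 12722, 16086 and 9236 in Vps15LKO. The highest Vps15LKO liver stayed below the lowest WT liver, and the mean of the Vps15LKO livers was 25.2% of the WT mean (50245 ± 13974 in WT and 12681 ± 3425 in Vps15LKO, SD, n = 3 each). The difference corresponded to a 3.94-fold fall (log2 fold change −1.98, SE 0.29, adjusted p = 0.000328). Mat2a (chr6:72432799-72439558, minus strand) had 1166, 1103 and 1433 normalized counts in WT, compared with 2241, 1990.2 and 2070.2 in Vps15LKO. Every Vps15LKO liver was above every WT liver, with a 1.71-fold rise (log2 fold change 0.77, SE 0.12, adjusted p = 0.000412). Mat2b (chr11:40679314-40695203, minus strand) had 591, 601 and 534 normalized counts in WT, compared with 529, 551 and 475 in Vps15LKO. Here the groups overlapped, and the change was not called (log2 fold change −0.15, SE 0.10, adjusted p = 0.207), with a 95% interval from −0.38 to 0.08. With the same total in every library Mat2b took the other sign and was called higher (0.57, adjusted p = 0.000381).

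Ratios within a library do not depend on its size factor. Exon length, used from here on, merges all annotated exons of a gene and need not be the length of its mRNA. Divided by exon length, Mat1a stood 64.2, 69.0 and 30.8 times as high as Mat2a in WT, compared with 7.35, 10.5 and 5.77 times in Vps15LKO. The ratio was thus 6.75-fold lower on average in Vps15LKO, with no overlap between genotypes. Expressed as a share of the normalized counts per kilobase (kb) of both genes, Mat2a made up 1.53, 1.43 and 3.14% in WT and 12.0, 8.73 and 14.8% in Vps15LKO (2.04 ± 0.961% and 11.8 ± 3.02%, SD, n = 3 each). Mat1a remained the more abundant transcript in all 6 livers. The ratio of Mat2b to Mat2a was lower in every Vps15LKO liver, by 1.90-fold, again without overlap. For each of these ratios the exact two-sided permutation test gave p = 0.1, the smallest that 3 livers against 3 allow, and 0.17 after Benjamini-Hochberg adjustment over the 17 ratios tested. An antisense transcript on the opposite strand, Particl, shares 508 bp of exon with Mat2a and showed a like difference (log2 fold change 0.71, SE 0.16, adjusted p = 0.00411). The strand setting of the read counting is not given in the sources used here, so reads from that stretch cannot be assigned to either gene.

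**Figure D2:**
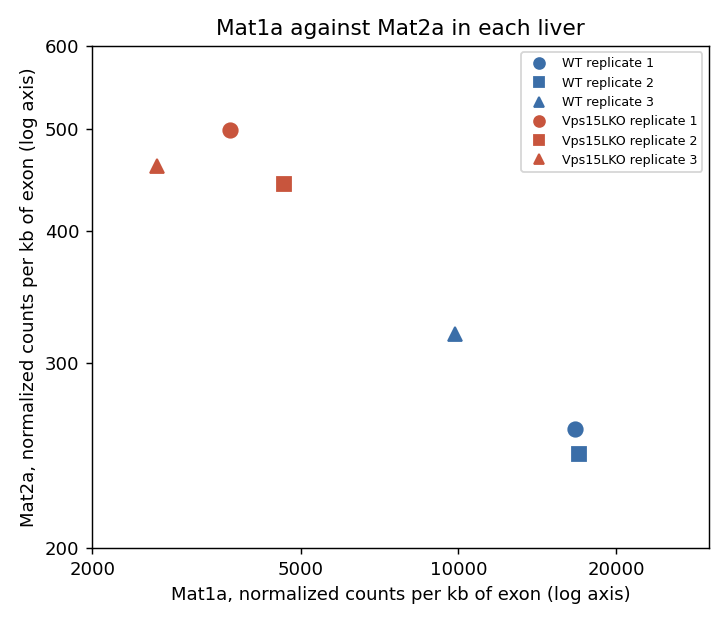
Normalized counts per kb of exon of Mat1a (x axis) against those of Mat2a (y axis), both on log axes, with a point for each of the 6 livers. The Vps15LKO livers lie at the upper left and the WT livers at the lower right, where Mat2a makes up 1.43 to 3.14% of both genes against 8.73 to 14.8% in the Vps15LKO livers.

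Among the genes that use SAM or clear its product, the largest differences of the set were found. Gnmt encodes glycine N-methyltransferase, which passes the methyl group of SAM to glycine and is regarded as the main buffer of hepatic SAM, and Ahcy the hydrolase that splits S-adenosylhomocysteine. Gnmt (chr17:46725664-46729168, minus strand) had 44506, 40275 and 26044 normalized counts in WT, compared with 4551, 6481 and 3256 in Vps15LKO. Its lowest WT liver was 4.02 times its highest Vps15LKO liver, and the fall was 7.86-fold (log2 fold change −2.97, SE 0.28, adjusted p = 3.46e-05). Ahcy (chr2:155059310-155074497, minus strand) had 30021, 27812 and 20840.2 normalized counts in WT, compared with 3828, 4802 and 2881 in Vps15LKO. It fell 6.90-fold (log2 fold change −2.79, SE 0.21, adjusted p = 1.15e-05), and its groups did not overlap either. The ratio of Gnmt to Ahcy overlapped between genotypes (exact permutation p = 0.2), with a mean log2 ratio of 0.47 ± 0.13 in WT and 0.29 ± 0.13 in Vps15LKO (SD, n = 3 each).

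Pemt encodes the methyltransferase that converts phosphatidylethanolamine to phosphatidylcholine, a large consumer of SAM in liver. Pemt (chr11:59970614-60046489, minus strand) had 8690.3, 7537 and 6133 normalized counts in WT, compared with 2586, 3481 and 2288 in Vps15LKO. Again all Vps15LKO livers were below all WT livers, with a 2.69-fold fall (log2 fold change −1.43, SE 0.18, adjusted p = 0.000171). This fall was smaller than that of Gnmt in the same libraries: the ratio of Pemt to Gnmt was 2.92-fold higher in Vps15LKO, without overlap (exact permutation p = 0.1, adjusted 0.17).

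Ahcy has close copies elsewhere in the genome that can share its reads. Gm4737, annotated as coding, matches it over 2083 bp at 99.71% identity, and the pseudogene Gm9826 over 1299 bp at 99.15%. Gm4737 had 5402, 5119 and 3559 normalized counts in WT, compared with 614, 874 and 564 in Vps15LKO, a fall close to that of Ahcy (log2 fold change −2.78). The copies held 15.7 to 18.2% of the summed counts in any liver, and the sum changed by a log2 value of −2.78, against −2.79 for Ahcy alone. The copies cannot be assigned their own transcription from these counts.

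Both genes of the betaine-homocysteine methyltransferase family were lower as well. Bhmt encodes betaine-homocysteine methyltransferase, which makes methionine from homocysteine with betaine, and Bhmt2 a related enzyme that uses S-methylmethionine as the methyl donor. Bhmt (chr13:93616675-93637961, minus strand) had 40889.7, 43646 and 58768 normalized counts in WT, compared with 12334, 16689 and 8170.4 in Vps15LKO. The groups did not overlap, and the fall was 3.97-fold (log2 fold change −1.99, SE 0.28, adjusted p = 0.000287). Bhmt2 (chr13:93655720-93674302, minus strand) had 4325, 3959.6 and 4121 normalized counts in WT, compared with 1483, 1696 and 1384 in Vps15LKO. It fell 2.73-fold with the smallest standard error of the 8 lower members (log2 fold change −1.45, SE 0.10, adjusted p = 8.28e-06). The ratio of Bhmt to Bhmt2 overlapped between genotypes (exact permutation p = 0.2). Copies of Bhmt, Gm5096 at 99.36% identity and Bhmt-ps1 at 98.94%, held 5.34 to 6.06% of their common sum, which changed by −1.99. The antisense gene Gm15622, which shares 187 bp of exon with Bhmt, had 6205, 7566 and 8559.8 normalized counts in WT, compared with 1691, 2506 and 1103 in Vps15LKO (log2 fold change −2.14, SE 0.27, adjusted p = 0.000148), and the strand of its reads is not known here either.

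Bhmt, Bhmt2 and Dmgdh are neighbours on chromosome 13. The gene models of Bhmt and Bhmt2 are 17758 bp apart, and Bhmt2 and Dmgdh, on opposite strands, start 130 bp from each other. Dmgdh, whose mitochondrial enzyme oxidizes the dimethylglycine that Bhmt releases, fell 3.94-fold (log2 fold change −1.98, SE 0.19, adjusted p = 3.43e-05). The other genes of betaine and dimethylglycine metabolism also fell, so that 4 of 4 were called lower, beside 33.0% of all tested genes. Sardh, the sarcosine dehydrogenase that oxidizes the product of Gnmt, had a log2 fold change of −2.44, Aldh7a1, which oxidizes betaine aldehyde, of −1.80, and Chdh, the choline dehydrogenase, of −0.85. With the same total in every library Chdh was no longer called (−0.13), and the other 3 stayed lower. Mtr, the methionine synthase that remethylates homocysteine with a folate, and its reductase Mtrr were not called, at log2 fold changes of 0.27 and 0.38, while both were called higher on the scale of equal totals.

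Both genes of transsulfuration fell by like amounts. Cbs encodes cystathionine β-synthase, which condenses homocysteine with serine, and Cth cystathionine γ-lyase, which releases cysteine. Cbs (chr17:31608894-31637238, minus strand) had 11539.7, 10519 and 8678 normalized counts in WT, compared with 2645, 3275 and 2553 in Vps15LKO. This was a 3.62-fold fall without overlap (log2 fold change −1.86, SE 0.15, adjusted p = 1.32e-05). Cth (chr3:157894248-157925077, minus strand) had 7388, 7244 and 5617 normalized counts in WT, compared with 1678, 2129.6 and 1591 in Vps15LKO. It fell 3.75-fold, also without overlap (log2 fold change −1.91, SE 0.15, adjusted p = 1.33e-05). The log2 ratio of Cbs to Cth was 0.60 ± 0.057 in WT and 0.65 ± 0.031 in Vps15LKO (SD, n = 3 each; exact permutation p = 0.3), and that of Bhmt to Cbs, the enzymes of the branch point, overlapped too (exact permutation p = 0.8).

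Downstream of cysteine, all 8 genes of cysteine and sulfide use were called lower, beside 33.0% of all tested genes, or 11.1% with equal totals. Suox, the sulfite oxidase, was at a log2 fold change of −2.53, Csad, which makes the precursor of taurine, at −2.05, Cdo1, the cysteine dioxygenase, at −1.72, and Mpst, a sulfurtransferase, at −1.50. On the scale of equal totals 7 of the 8 were called lower, the exception being Sqor (0.17). The 4 genes that carry 2-oxobutyrate, the other product of Cth, on through propionyl-CoA were called lower under both scalings: Pcca was at −1.76, Pccb at −1.60, Mmut at −1.51 and Mcee at −1.30. The genes of glutathione synthesis differed from these. Gclc, the catalytic subunit of glutamate-cysteine ligase, rose 2.54-fold (8818 ± 2324 in WT and 21838 ± 1579 in Vps15LKO, SD, n = 3 each), and Gss, glutathione synthetase, rose 2.26-fold. Gclm, the modifier subunit, was not called (−0.17) and was called higher with equal totals (0.56).

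The directions of the 9 called members did not depend on the scaling. With equal totals Gnmt stood at a log2 fold change of −2.25, Ahcy at −2.06 and Mat1a at −1.25, while Bhmt2 and Pemt had the smallest remaining falls, −0.72 and −0.70. Relative to the median of all genes on that scale, Mat2a was at 0.80, Bhmt2 was at −1.42 and Pemt at −1.41. On that scale 11.1% of tested genes were called lower and 66.7% higher. Under quantile normalization Mat1a and Bhmt had their smallest falls, −0.80 and −0.77, and Gnmt was at −1.94. The 8 falls and the rise of Mat2a passed the test under each of 21 alternatives, which included edgeR, DESeq2 and voom on the recovered reads and each liver left out in turn. Stricter thresholds on the same main fit, a 1.5-fold change or an adjusted p below 0.01, were counted among the alternatives.

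**Figure D3:**
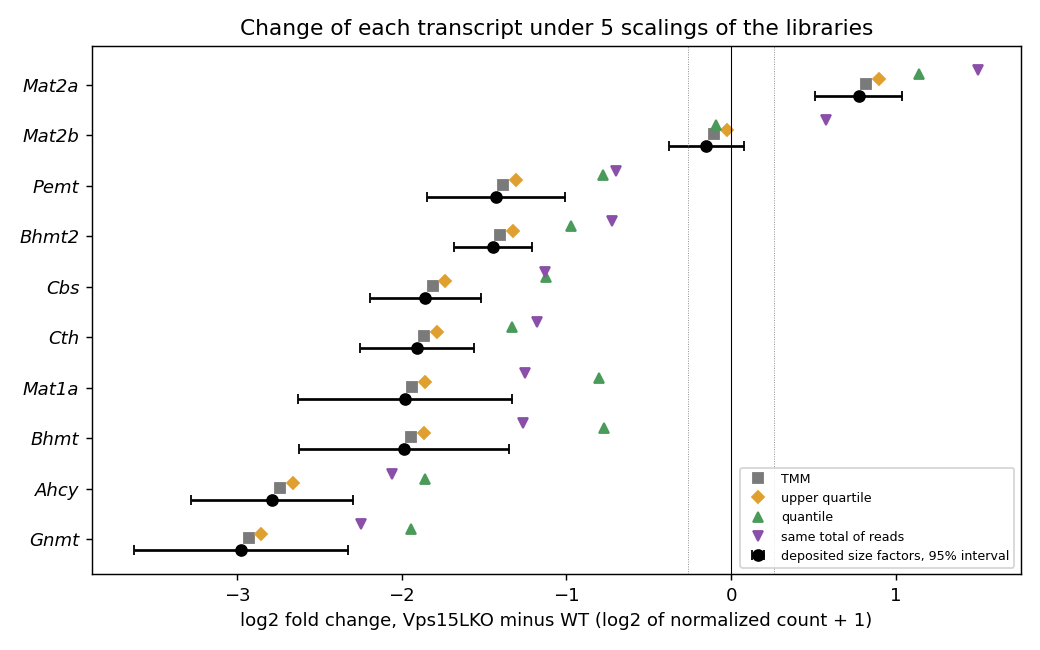
Log2 fold change (Vps15LKO minus WT) of each of the 10 genes under 5 scalings of the libraries. Black points with 95% intervals are the deposited size factors, other symbols the alternatives, and dotted lines mark a 1.2-fold change. Of the 10 genes, 8 lie below 0 and Mat2a above 0 at every scaling, whereas Mat2b crosses 0, from −0.15 to 0.57.

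The hepatocyte marker genes were lower in Vps15LKO livers too. Of 11 markers 8 were called lower, all 11 were without overlap, and their median log2 fold change was −1.48. Of all tested genes 33.0% were called lower and 36.8% were without overlap in that direction. The abundant plasma protein genes Alb, Trf and Ahsg had −1.48, −0.65 and −0.61 and were not called, and the 11 ranged from −1.98 to −0.61. The markers Ttr, Fga and Cps1 were at −1.98, −1.91 and −1.86, beside −1.98 for Mat1a, −1.99 for Bhmt, −1.91 for Cth and −1.86 for Cbs. With equal totals 8 markers were again called lower, and 9 of the 11 were without overlap. On that scale 11.1% of all tested genes were called lower and 12.3% were without overlap in that direction. Trf and Ahsg then took the other sign, at 0.08 and 0.12. Quantile normalization left 5 of the 11 called lower, beside 5801 of the 15430 tested genes, so this count is a description. The median of the markers was then −0.33, with Apob and Fgb at −0.14 and −0.25. Summed normalized counts of the 11 ranged from 3518803 to 3793419.9 in WT and from 1188459.7 to 1739844 in Vps15LKO. Of all tested genes 33.5% were called higher, or 66.7% with equal totals. Genes of other cells were higher: 6 of 6 tested cholangiocyte markers, 6 of 7 macrophage markers and 7 of 7 markers of stellate cells and fibroblasts were called higher. Their sums were 1268 to 1417 in WT and 12186 to 23568 in Vps15LKO for cholangiocytes, 4458 to 5509.8 and 18941 to 19120.3 for macrophages, and 4777 to 5153 and 17446 to 21017 for stellate cells and fibroblasts. Spp1 alone held most of the cholangiocyte sum in Vps15LKO, and without it the sums were 774 to 833 in WT and 1784 to 3072 in Vps15LKO. Endothelial markers split, with 3 higher and 3 lower of 6 and none lower with equal totals. The lymphocyte markers summed to 58.3 to 87.6 in WT and 131 to 166 in Vps15LKO. All 8 proliferation markers were higher, with sums of 232 to 607 in WT and 3358 to 3627 in Vps15LKO, and so were the 4 tested genes of fetal liver, among them Afp at 8.18, with sums of 98.1 to 168 and 31992 to 45696. Of these, 2 cholangiocyte, 4 proliferation and 2 fetal genes, and the 3 lymphocyte genes called higher of 4 tested, were under 20 normalized counts in a WT liver and passed the filter only through the Vps15LKO livers, so these counts are a description. Under quantile normalization 1 lymphocyte gene was called higher and 1 lower. The part of these changes in marker genes in the values of the 10 genes was not tested, apart from the ratios that follow.

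Each member was therefore also divided by the geometric mean of the 11 hepatocyte markers in the same library. Against this reference Gnmt was still 2.84-fold and Ahcy 2.49-fold lower in Vps15LKO, and Bhmt, Cth and Cbs were 1.43-, 1.36- and 1.31-fold lower, each without overlap (exact permutation p = 0.1, adjusted 0.17). Mat1a was 1.43-fold lower with overlapping groups (exact permutation p = 0.3). The markers themselves fell unequally, with log2 fold changes from −1.98 to −0.61, so these smaller differences depend on which markers are averaged. Ttr, Fga and Cps1 fell about as much as Mat1a, Bhmt, Cth and Cbs. Bhmt2 and Pemt differed from the markers by log2 values of 0.02 and 0.04 (exact permutation p = 0.9 and 0.8), within the spread between livers. Mat2a was 4.73-fold and Mat2b 2.49-fold higher relative to the markers, without overlap (exact permutation p = 0.1). Mat2a and Mat2b are also transcribed in other cells of the liver, so that their ratio to hepatocyte markers mixes cell types.

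**Figure D4:**
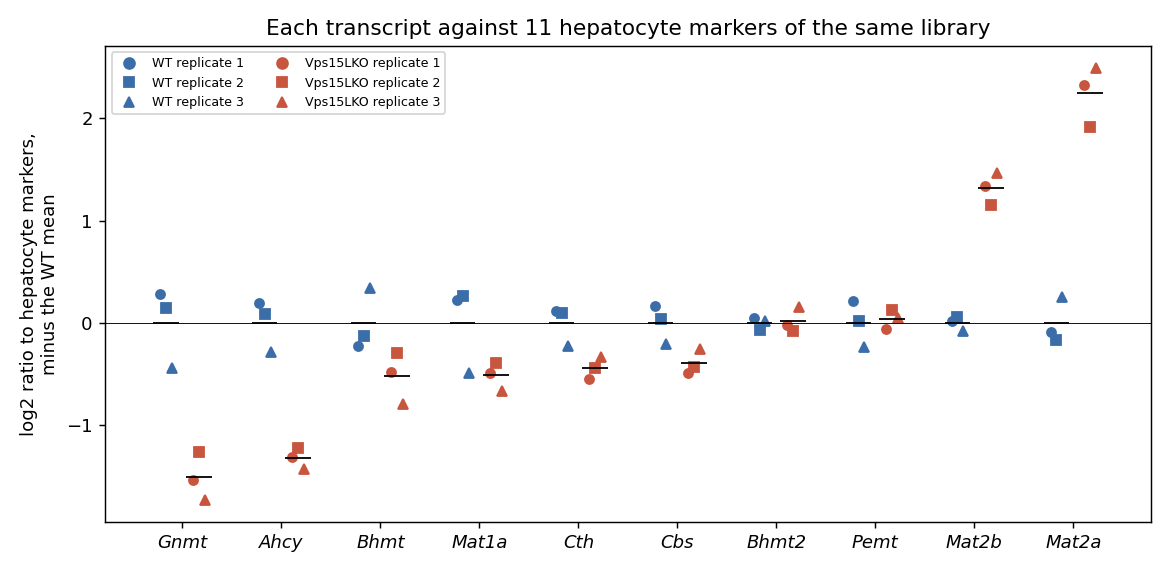
Log2 ratio of each of the 10 genes to the geometric mean of 11 hepatocyte markers in the same library, centred on the WT mean of each gene, with a point for every liver and a line at each group mean. Gnmt, Ahcy, Bhmt, Cth and Cbs lie lower in all 3 Vps15LKO livers, Mat2a and Mat2b higher, and Mat1a, Bhmt2 and Pemt overlap. Small differences depend on which markers are averaged.

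Ordered by normalized counts per kb of exon, Gnmt ranked first in WT livers at 30631 ± 8019.8, followed by Mat1a at 14488 ± 4029, Ahcy at 9349 ± 1708 and Bhmt at 8296 ± 1672 (mean ± SD, n = 3). The ranges of Mat1a and Ahcy overlapped, although Mat1a was above Ahcy within each of the 3 livers. Ahcy was above Bhmt in 2 of 3 livers, and their ranges overlapped, so that this pair was not separated. Pemt (3543 ± 609), Cth (2418 ± 352), Bhmt2 (1676 ± 74.3), Cbs (1369 ± 194), Mat2a (275 ± 39.1) and Mat2b (115 ± 7.25) followed, each above the next in all 3 livers. In Vps15LKO livers Gnmt (3949 ± 1346), Mat1a (3657 ± 988), Bhmt (2153 ± 739.8) and Ahcy (1368 ± 342) had overlapping ranges, but each was above the next within every liver. Ahcy was above Pemt (1324 ± 295) in 2 of 3 livers, as was Cth above Bhmt2. Mat2a (468 ± 28.5 per kb) now stood above Cbs (377 ± 52.5 per kb) in all 3. That order depends on the exon lengths used, as may others above. In normalized counts Cbs (2824 ± 393) stood above Mat2a (2100 ± 128) in Vps15LKO.

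Within a genotype, many members shifted together in the same liver. WT replicate 3 was the lowest WT liver for 7 of the 10 members and the highest for Bhmt and Mat2a. The hepatocyte markers did not follow there, with 5 of 11 lowest and 4 highest in that liver. Their median log2 deviation was −0.006, against −0.24 for the members. WT replicate 3 also had the highest sum of proliferation markers, 607, against 310.3 and 232 in the other WT livers. Among Vps15LKO livers, replicate 2 was the highest for 9 of 10 members and for 11 of 11 hepatocyte markers, and replicate 3 the lowest for 9 and for 11. The sum of cholangiocyte markers ran the opposite way, 12186 in replicate 2 and 23568 in replicate 3, or 1784 and 3072 without Spp1. The part of these marker differences in the spread of the members was not tested. With replicate 3 of the WT livers left out, the log2 fold change of Mat1a was −2.24 and that of Gnmt −3.21. Across all 6 single-liver omissions Mat1a ran from −2.24 to −1.77 and Mat2a from 0.70 to 0.89.

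Beyond the core cycle, 71 genes in 12 lists of adjoining reactions were compared, and 38 were called lower, 18 higher and 15 neither, with a median log2 fold change of −0.53. Of all tested genes 33.0% were called lower and 33.5% higher, or 11.1% and 66.7% with equal totals. Counts in the short lists are a description beside those shares. With equal totals the split was 24 lower, 35 higher and 12 neither, so the directions of lists with small changes rested on the scaling. Of 9 small-molecule methyltransferases 8 were called lower, 4 with equal totals. Inmt, which methylates indoleamines, was at −2.52, Nnmt, which methylates nicotinamide, at −2.36, and Gamt, which completes creatine, at −1.42, and all of these were called lower under both scalings. In contrast, the DNA methyltransferase genes Dnmt1 (243 ± 17.1 in WT and 558 ± 21.2 in Vps15LKO, SD, n = 3 each) and Dnmt3a (485 ± 56.6 in WT and 895 ± 129 in Vps15LKO, SD, n = 3 each) rose, by 2.29- and 1.84-fold, and Dnmt3b was not called (0.21), though with equal totals it was called higher as well. Of the 4 genes for Ahcy-like proteins and SAM sensing, Ahcyl1 alone was called, lower at −0.41, whereas with equal totals all 4 were called higher, Ahcyl1 at 0.32. Methionine salvage, which recovers methionine from the by-product of polyamine synthesis, had 2 genes lower and 3 higher of 5, with Adi1 at −1.28 and Enoph1 at 0.73, and Adi1 alone stayed lower with equal totals.

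Of 7 polyamine genes 3 were called higher and 1 lower, against 6 and 1 with equal totals. Since 33.5% of all tested genes were called higher, or 66.7% with equal totals, these counts do not set the list apart. Smox, the spermine oxidase, rose 6.73-fold, Sat1, the acetyltransferase of polyamine breakdown, 2.97-fold and Sms, spermine synthase, 1.74-fold, while Paox, which oxidizes acetylated polyamines, fell 2.71-fold. Each of these 4 kept its direction with equal totals. In the synthesis of phosphatidylcholine and phosphatidylethanolamine, the route that runs beside Pemt, 8 of 13 genes were called lower and 2 higher, against 3 lower and 7 higher with equal totals. Chpt1, the choline phosphotransferase, was at −2.69, Etnk2, an ethanolamine kinase, at −1.99, Pcyt2, which makes CDP-ethanolamine, at −1.51, and Chka, a choline kinase, at 0.85. Pcyt1b, a gene for the enzyme that makes CDP-choline, had 2, 1 and 2 reads in WT, compared with 53, 48 and 111 in Vps15LKO, a ratio of 24.6 with a 95% counting interval of 10.4 to 76.6. Of 8 genes for the uptake of methionine and cystine 5 were called higher and 2 lower, against 5 and 1 with equal totals. Slc7a8 rose 5.27-fold, Slc43a2 3.61-fold and Slc3a2, the heavy chain shared by several amino acid exchangers, 3.00-fold, whereas Slc38a4 fell 4.38-fold. Slc7a11, the cystine and glutamate exchanger, had 0 reads in all 3 WT livers and 1814, 1489 and 2269 normalized counts in the Vps15LKO livers, at least 473-fold higher against a floor of 3 reads per library. Slc7a11 and Pcyt1b passed the filter on low values through the Vps15LKO livers and so had to differ to be tested, and intervals and floors cover counting error only.

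**Figure D5:**
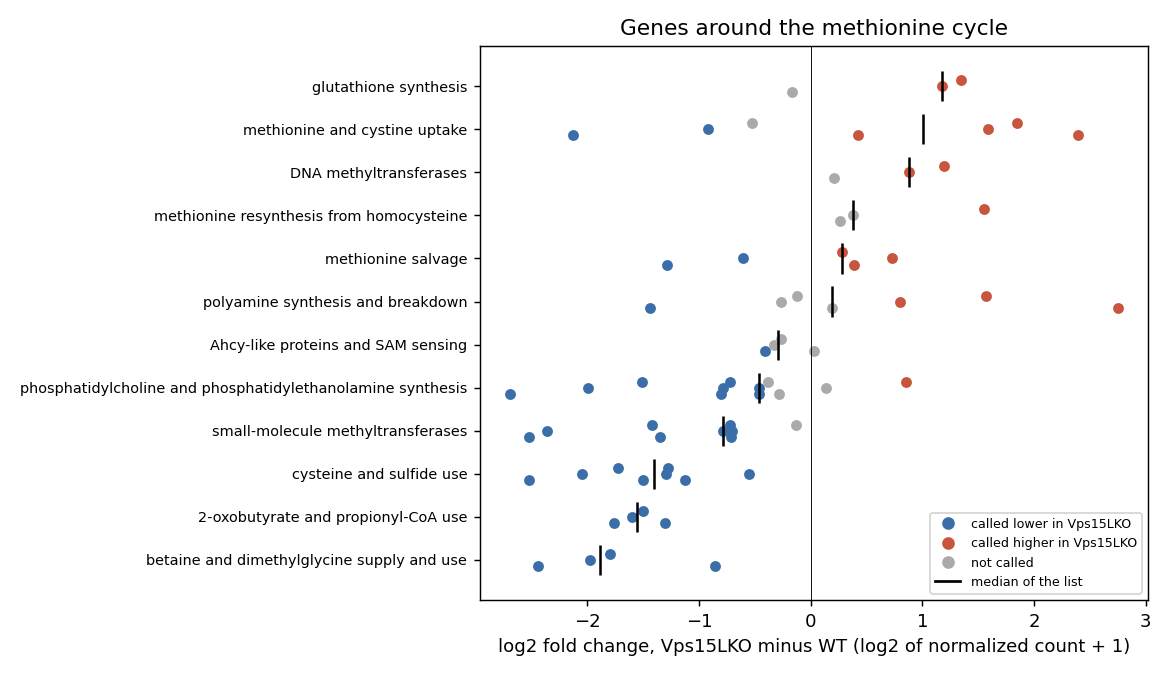
Log2 fold change (Vps15LKO minus WT) of the genes in 12 lists around the methionine cycle, a point for each gene, coloured by call, with a line at each list's median. Slc7a11 and Pcyt1b, which had 0 to 2 reads per WT liver, are left out. The genes of betaine, of cysteine and sulfide use and of propionyl-CoA lie below 0, and 2 of the 3 genes of glutathione synthesis lie above it.

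The tested genes nearest to Mat1a and Mat2a in pattern were found by the Euclidean distance over the 6 libraries in centred log2 values. For Mat1a they were Adra1b, an α1-adrenergic receptor (distance 0.221, log2 fold change −1.98), Tomm40l (0.254 and −2.08) and Ppm1k (0.257 and −2.15). For Mat2a they were Klhdc8b (0.115 and 0.81), Tnfrsf1b (0.161 and 0.80) and Snx6 (0.162 and 0.75). These distances are a description, with no test.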

How the data were processed

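Livers of 3 WT and 3 Vps15LKO male mice were profiled by RNA-seq of poly(A) RNA with a library kit that marks the strand (dUTP). Per the study's methods and processing notes, the authors cleaned reads with SOAPnuke, aligned them with HISAT2 to GRCm38 (mm10), obtained gene counts with featureCounts and applied DESeq2 size factors to them. Tool versions and the strand setting of the counting are not given in the sources used here. The deposited signal is therefore a normalized count. Whole reads were recovered from it, since 100% of values divided by what 1 read is worth came out whole (tolerance 0.01), giving the depth of each library. Of 56305 Ensembl identifiers 55227 matched GENCODE M21 (GRCm38), and the 10 members were found by symbol in its annotation.

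A gene entered the test (15430 did) when 3 or more of the 6 livers had 20 or more normalized counts. Tests were run with limma 3.58.1 (lmFit, eBayes with a trend; R 4.3.3) on log2(normalized count + 1), which understates the change of low genes, with Benjamini-Hochberg adjustment over all of them. Calls needed an adjusted p below 0.05 plus a change of 1.2-fold or more. Ratios within a library and shares were compared by exact two-sided permutation (scipy 1.17.1). Alternatives were pseudocounts of 0.1 and 10, other filters, thresholds and scalings, limma with no trend, DESeq2 1.42.0, edgeR 4.0.16 and voom run on recovered reads, each liver left out, and a replicate block. The procedure was tested on simulated data. Near copies of at least 500 bp and 90% identity were sought with BLAST 2.17.0. Promoter sequences are from RefSeq (GRCm38.p6).

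Named were all members, Pik3r4, in each pathway list up to 4 called genes by size of change and any gene at the floor of 3 reads, abundant genes of marker lists, the 3 nearest patterns of Mat1a and of Mat2a, and genes sharing exon sequence with members. Other list genes, such as Gclm, Mtr, Sqor, Dnmt3b or Ttr, were named after their values were seen, and some genes of the lists are not reported here. The members and lists were chosen with earlier results of these data known. Each mouse gave 1 library, and p-values measure the spread between these mice.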

Additional observations from a re-analysis of the deposited data

How the results depend on the processing

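Of 210 member values, 10 genes under 21 alternatives each, 209 kept their direction and their side of the threshold. With library totals made equal, Mat2b reversed to 0.57, the members called higher became 2, the adjoining pathway genes became 24 lower and 35 higher, and of all tested genes 1712 were called lower and 10299 higher, against 5099 and 5163. Upper-quartile scaling moved the median log2 fold change of all genes by 0.12, and left every member's call as it was. Under the other alternatives the pathway genes numbered 34 to 41 lower and 15 to 20 higher. With 1 liver left out at a time, 3 ratios whose groups overlapped changed sign: the log2 ratio difference of Bhmt to Cbs ran from −0.324 to 0.144, that of Bhmt2 to the hepatocyte markers from −0.0481 to 0.0695, and that of Pemt to the markers from −0.0790 to 0.149. The replicate numbers are shared between genotypes, but same-numbered livers did not deviate together (r = −0.00992, −0.0114 and 0.0485). A fit with the replicate number as a block gave 8 members lower and 1 higher and 41 pathway genes lower and 17 higher, and changed no member's call. With 3 livers per genotype no exact permutation test can fall below 0.1, so the ratios have no call. The scaling sets the absolute size of each fold change, since total RNA per liver was not measured here.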
